A study of Mus musculus with 12 samples.

Results

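The synaptic vesicle and release genes are 36 genes whose proteins store transmitter in vesicles, dock and prime those vesicles and fuse them with the presynaptic membrane. They were taken by gene symbol from a list, and all 36 were found among the 24091 genes of the expression table. They comprise 11 synaptotagmins, 3 synapsins, 6 vesicle membrane proteins, 7 genes of the SNARE fusion machinery with its helpers, 6 active zone and priming genes, the GTPase *Rab3a* with its effector *Rph3a*, and the clathrin adaptor *Snap91*.

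The samples were 12 mouse RNA-seq libraries in 4 groups of 3. Medulloblastomas labelled Brca2-mut;Trp53-mut came from mice GB344, GB359 and GB370, and cerebellum lying next to the tumor was taken from the same 3 mice. Tumor-free control cerebellum came from mice labelled Brca2-mut;Trp53-WT (GB361, GB508 and GB512) and from mice labelled Brca2-WT;Trp53-mut (GB517, GB519 and GB520). Brca2-mut denotes a *Brca2* allele that loses its exons 3 and 4 by Cre recombinase under the human *GFAP* promoter, which is active in neural progenitors and glia, so cells outside that lineage keep the gene. Trp53-mut denotes a germline knockout in every cell. No group was wild type at both genes, every group carried at least 1 of the 2 alleles, and the 2 tumor-free genotypes together served as the 6 controls, age-matched adults in the study. Tumors were collected when the mice became ill, so a tumor and its adjacent cerebellum share an animal while the controls are other animals.

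An action potential opens calcium channels in the presynaptic membrane, and calcium binding to a synaptotagmin on a docked vesicle triggers fusion by the SNARE proteins, in which a vesicle VAMP zips together with syntaxin and SNAP25 of the plasma membrane. Before that step, active zone scaffolds such as RIM, bassoon and piccolo gather vesicles and channels, Munc13 opens syntaxin for assembly, and complexin clamps the partly zipped complex. Cerebellar granule neurons, which arise from granule cell progenitors in early postnatal life, fill the adult cerebellum with such synapses through their parallel fibers, and medulloblastoma of the Sonic hedgehog kind arises from those progenitors.

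Values were TPM, the share of all transcripts that a gene holds on a common scale, a level corrected for transcript length and scaled to the same total in every library, so the sequencing depth behind each value is unknown. The gene-level TPM of *Brca2* was 8.22 to 14.6 in tumors and 3.24 to 4.40 in controls, and that of *Trp53* was 124 to 130.5 in tumors, 33.1 to 37.2 in Brca2-mut;Trp53-WT and 47.1 to 49.4 in Brca2-WT;Trp53-mut cerebellum. Such sums include the exons that the alleles keep, so they check none of the labels. Of 6 granule neuron markers (*Gabra6*, *Cbln3*, *Fat2*, *Etv1*, *Slc17a7*, *Cbln1*), the summed TPM was 118, 394 and 298 in tumors GB344, GB359 and GB370, 1975, 2687 and 2584 in their adjacent cerebella and 2495 to 3213 in controls, with no marker at 0. Of 6 granule cell progenitor markers (*Atoh1*, *Gli1*, *Gli2*, *Barhl1*, *Sfrp1*, *Mycn*) the sum was 1725, 1726 and 1842 TPM in tumors, 486, 459 and 78.3 TPM in adjacent cerebella and 41.2 to 45.5 TPM in controls, with 1 marker at 0 in 1 control. The adjacent cerebella of GB344 and GB359 thus stood apart from that of GB370 in progenitor markers. The 6 markers of proliferation summed to 247, 141 and 14.7 TPM in the adjacent cerebella, in the same order. In controls that sum was 31.0 TPM in Brca2-mut;Trp53-WT cerebellum GB512 and 1.90 to 2.52 TPM in the others. Summed Purkinje cell markers lay at 51.5, 201 and 285 TPM in the tumors, in mouse order, against 4438 to 7550.2 TPM in controls, and summed oligodendrocyte markers at 95.7 to 318 and 3455 to 5319 TPM. The 6 general neuron markers were *Rbfox3*, *Map2*, *Tubb3*, *Nefl*, *Nefm* and *Stmn2*. Their summed TPM was 847 to 1193 in tumors and 1807 to 2125 in controls. Their log2 fold changes in tumors against controls ran from −5.66 to 0.35, so these markers did not change alike.

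Tumor was first compared with control cerebellum, which asks how far the release machinery of the cerebellum is kept in the tumor. Nearly the whole set was lower in tumors. Of the 36 members, 31 were called lower and 1, the syntaxin *Stx1a*, was called higher. A gene was called where limma's adjusted p was below 0.01 and its log2 fold change was 1 or more in size. *Syn3*, *Unc13a*, *Sypl* and *Syt13* were not called. Lower calls made up 21.5% of all 16241 genes tested and higher calls 14.4%. The members had a median log2 fold change of −2.45, on the log2(TPM + 1) scale, beside −0.11 over all genes tested. In 32 members the 3 tumors lay below all 6 controls, in 1 they lay above, and in 3 the groups overlapped, where 35.7% of all genes tested lay wholly below and 28.3% wholly above. All 36 members passed the filter of 1 TPM in 3 samples, so none was lost to it. In bulk tissue, fewer cells of a type and less mRNA per cell cannot be told apart, and the part that the fall of the granule neuron and Purkinje cell markers has in these values was not tested.

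**Figure D1:**
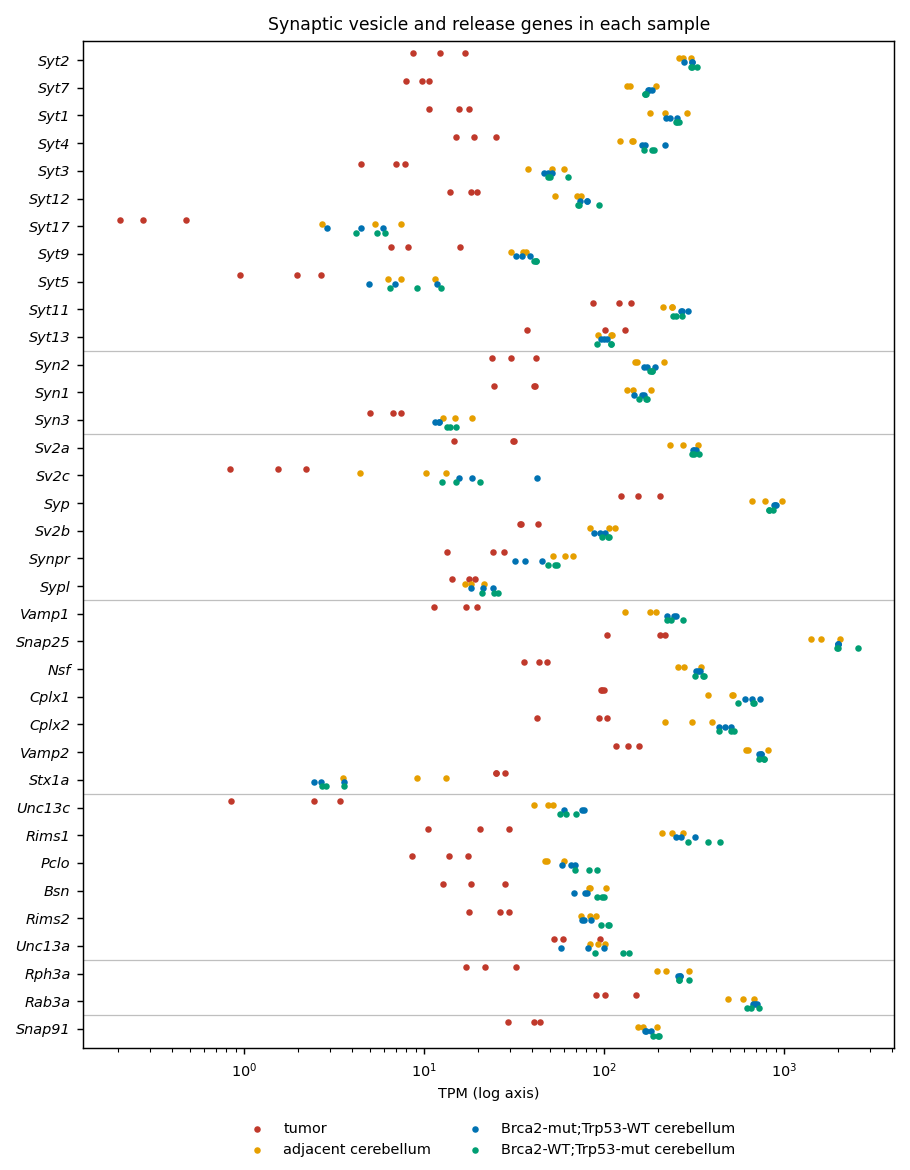
TPM of each of the 36 genes (rows, grouped by role) in each of the 12 samples on a log axis, 1 point a sample, colored by group. Tumor points lie to the left of the control points in 32 rows, to the right for Stx1a alone, and among them for Syt13, Sypl and Unc13a.

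Of the 5 largest falls, 3 were in calcium sensors of release. *Syt1* and *Syt2* are the fast sensors that trigger synchronous fusion, and *Syt2* is the main one of many hindbrain synapses. *Syt2* (Entrez Gene 20980, chr1:134646534-134753149 in GRCm38) measured 8.65, 12.2 and 16.9 TPM in the tumors of GB344, GB359 and GB370, beside 279.8, 309 and 328 TPM as the lowest, median and highest of the 6 controls. Its mean was 24.3-fold lower in tumors, and its log2 fold change of −4.54 ± 0.16 (SE; limma adjusted p = 1.16e-08) was the most negative of the 36. *Syt1* had 10.7, 17.7 and 15.7 TPM in tumors against 221, 253 and 262 TPM in controls, a log2 fold change of −4.00 ± 0.13 (SE). *Syt7*, a slower high-affinity sensor used in asynchronous release and vesicle replenishment, had 7.94, 9.75 and 10.7 TPM in tumors against 169, 174 and 185 TPM, and its log2 fold change of −4.08 ± 0.088 (SE) had the smallest error of the 36. In each of these 3 sensors every tumor lay below every control, and the tumors spanned a range of under 10 TPM.

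*Syt9*, the third fast sensor, had 6.56, 15.8 and 8.16 TPM in tumors against 32.3, 40.0 and 41.9 TPM in controls, so its mean kept 26.4% of the control level where *Syt1* kept 5.97% and *Syt2* 4.11%. *Syt3*, a high-affinity calcium-binding synaptotagmin, had 4.47, 7.87 and 7.03 TPM in tumors and a log2 fold change of −2.84 ± 0.15 (SE). *Syt5*, a calcium-binding relative, fell from a control mean of 8.63 ± 3.02 TPM (SD, n = 6) to 0.948, 2.68 and 1.97 TPM in tumors, a log2 fold change of −1.74 ± 0.29 (SE).

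Several synaptotagmins do not bind calcium in the usual way and serve trafficking. *Syt4*, which is carried on dense-core and brain-derived neurotrophic factor vesicles, had 25.3, 18.9 and 15.1 TPM in tumors against 164, 178 and 219.7 TPM in controls. It was 1 of 3 members whose highest tumor was GB344. Among the synaptotagmins called lower, *Syt11* had the smallest fold change, with 87.0, 141 and 122 TPM in tumors against 242, 269.9 and 294 TPM in controls, a log2 fold change of −1.21 ± 0.13 (SE; limma adjusted p = 1.36e-05). *Syt12* and *Syt17* also fell, with log2 fold changes of −2.13 ± 0.12 and −2.12 ± 0.20 (SE). The exons of *Syt12* share 17.2% of their bases with *A930001C03Rik*, and those of *Syt4* 14.5% with *Gm26658*, both on the opposite strand. *Syt17* was at 0.205, 0.477 and 0.274 TPM in tumors, under 1 TPM in all 3, and at 2.88 to 6.06 TPM in controls, so adding 1 before the logarithm shrinks its fold change.

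*Syt13*, a synaptotagmin without calcium binding, varied more between tumors than between controls. It had 37.3, 102 and 131 TPM in tumors against 91.9, 102 and 110.1 TPM in controls, so that tumor GB344 lay below every control, tumor GB370 above every control and tumor GB359 within their range. Its log2 fold change of −0.36 ± 0.31 (SE; limma adjusted p = 0.316) did not pass, and it turned to 0.18 without tumor GB344.

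The synapsins tether vesicles to each other and to actin in the reserve pool. *Syn1* had 24.4, 40.7 and 41.5 TPM in tumors against 148, 165 and 173 TPM in controls, and *Syn2* had 23.8, 30.5 and 42.2 TPM against 167, 182 and 193 TPM. Both fell, with log2 fold changes of −2.20 ± 0.15 and −2.49 ± 0.14 (SE). *Syn3*, the synapsin of early neuronal development, had 5.04, 6.71 and 7.45 TPM in tumors against 11.5, 12.8 and 15.1 TPM in controls. All 3 tumors lay below all 6 controls, but its log2 fold change of −0.93 ± 0.14 (SE; limma adjusted p = 1.18e-04) missed the fold change limit, and it passed that limit without tumor GB370, at −1.03, and against the Brca2-WT;Trp53-mut controls alone, at −1.05. Its exons share 14.1% of their bases with exons of *Timp3* on the opposite strand in GENCODE vM21, and no source used here says that strand was used in quantification.

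Of the vesicle membrane proteins, synaptophysin (*Syp*), an abundant partner of VAMP2, had 125, 205 and 156 TPM in tumors against 822, 876 and 905 TPM in controls, with a log2 fold change of −2.44 ± 0.13 (SE). The exons of *Syp* share 16.8% of their bases with the antisense gene *Gm14703*. Synaptoporin (*Synpr*) is a close relative with a narrower distribution in the brain. It had 13.5, 27.7 and 24.3 TPM in tumors against 32.2, 47.1 and 55.2 TPM in controls, with a log2 fold change of −1.05 ± 0.23 (SE; limma adjusted p = 0.00219). That call was lost at −0.75 without tumor GB344, at −0.82 against the Brca2-mut;Trp53-WT controls alone, and at −0.99 or −0.999 without control GB517 or GB519. *Sypl*, the relative found on vesicles outside neurons, had 19.1, 17.7 and 14.3 TPM in tumors against 18.4, 22.7 and 25.8 TPM in controls, groups that overlapped, with a log2 fold change of −0.38 ± 0.13 (SE; limma adjusted p = 0.0226).

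SV2 proteins are vesicle glycoproteins that keep the release machinery ready, and SV2A is the binding site of the antiseizure drug levetiracetam. *Sv2a* had 14.7, 31.8 and 31.4 TPM in tumors against 309, 317 and 339 TPM in controls, a log2 fold change of −3.65 ± 0.20 (SE; limma adjusted p = 9.81e-08). *Sv2b* had 34.7, 43.2 and 34.3 TPM against 87.6, 99.4 and 106 TPM, a log2 fold change of −1.38 ± 0.10 (SE), so the paralog with the lower level in controls had the higher level in tumors. *Sv2c* was at 0.833, 1.55 and 2.22 TPM in tumors against 12.6, 17.1 and 42.3 TPM in controls, had a log2 fold change of −3.03, and had the widest error of the 36 in this comparison (SE 0.33).

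Among the SNAREs, *Snap25*, the plasma membrane partner, had the highest mean of the 36 in tumors and in controls. It had 105, 218 and 205 TPM in tumors against 1968, 1997 and 2567 TPM in controls, a log2 fold change of −3.63 ± 0.21 (SE). In tumor GB344 alone, *Syp* and *Vamp2* were above *Snap25*. *Vamp2*, the main vesicle SNARE of the brain, had 117, 158 and 136 TPM in tumors against 724, 746 and 777 TPM in controls, a log2 fold change of −2.46 ± 0.090 (SE). *Vamp1*, its relative in hindbrain and spinal cord, had 11.3, 17.1 and 19.8 TPM against 224, 241 and 275 TPM, a log2 fold change of −3.87 ± 0.15 (SE). *Nsf*, the ATPase that pulls spent SNARE complexes apart, had 35.98, 43.4 and 48.2 TPM in tumors against 322, 337 and 360.1 TPM in controls (log2 fold change −2.97 ± 0.091, SE). Both complexins fell, with log2 fold changes of −2.72 ± 0.091 for *Cplx1* and −2.67 ± 0.23 for *Cplx2* (SE). *Cplx1* was nearly equal in the 3 tumors, at 99.8, 98.1 and 96.1 TPM, while *Cplx2* had 42.6, 103 and 93.4 TPM.

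*Stx1a*, the plasma membrane syntaxin that binds Munc18, went the other way. It stood at 25.3, 25.2 and 28.3 TPM in the tumors of GB344, GB359 and GB370, beside 2.45, 2.79 and 3.61 TPM as the lowest, median and highest of the controls. The 3 tumors lay together and above every control, with a mean of 880.2% of the control mean and a log2 fold change of 2.78 ± 0.13 (SE; limma adjusted p = 3.92e-08). No other member was called higher.

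At the active zone, *Unc13c* (Munc13-3), the priming factor that the cerebellum makes in granule neurons, had 0.849, 3.42 and 2.46 TPM in tumors against 56.7, 66.0 and 77.5 TPM in controls. Its mean was 29.8-fold lower, the largest ratio of means of the 36, and its log2 fold change was −4.47 ± 0.24 (SE; limma adjusted p = 7.33e-08). *Unc13a* (Munc13-1), the general priming factor of the brain, had 53.1, 95.4 and 59.2 TPM in tumors against 57.7, 94.5 and 139 TPM in controls. Tumor GB344 lay below all 6 controls, GB370 below 5 of them and GB359 within their range, and the log2 fold change of −0.50 ± 0.27 (SE; limma adjusted p = 0.123) did not pass. *Rims1* and *Rims2*, the scaffolds that bind Rab3 and calcium channels, fell, with log2 fold changes of −4.03 ± 0.28 and −1.86 ± 0.17 (SE). *Rims1* had 10.6, 29.7 and 20.6 TPM in tumors against 252, 307 and 444 TPM in controls, and *Rims2* had 17.9, 26.6 and 29.8 TPM against 75.8, 90.7 and 107 TPM. Bassoon (*Bsn*) and piccolo (*Pclo*), the giant scaffolds of the active zone, had log2 fold changes of −2.12 ± 0.21 and −2.40 ± 0.20 (SE). *Bsn* had 12.8, 28.4 and 18.3 TPM in tumors against 68.1, 85.8 and 99.6 TPM in controls, and *Pclo* had 8.55, 17.6 and 13.8 TPM and 58.5, 69.2 and 91.5 TPM.

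*Rab3a*, the vesicle GTPase that RIM and rabphilin read, had 90.9, 151 and 101 TPM in tumors against 627, 684 and 726 TPM in controls, a log2 fold change of −2.59 ± 0.14 (SE). Rabphilin (*Rph3a*) had 17.1, 21.9 and 32.4 TPM against 257, 263 and 299 TPM, a log2 fold change of −3.48 ± 0.16 (SE). *Snap91* (AP180), which sizes the clathrin coat when vesicles are retrieved, had 29.3, 44.2 and 40.9 TPM against 169, 185 and 201 TPM, a log2 fold change of −2.27 ± 0.12 (SE).

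The 3 tumors were not alike. Tumor GB344 was the lowest of the 3 for 31 of the 36 members, GB370 for 4 and GB359 for 1. The median member stood at 13.6% of its control mean in tumor GB344, 21.8% in GB359 and 18.5% in GB370, and the summed TPM of all 36 was 1142, 1834 and 1645, against 9280 to 10407 in controls. Tumor GB344 was also the lowest of the 3 in summed granule neuron and Purkinje cell markers, at the values given above. It was the highest in summed inhibitory interneuron markers, at 211 TPM beside 173 in GB359 and 203 in GB370. Whether any of those sums and the members share a source was not tested. Without tumor GB344 the members' median log2 fold change was −2.27, with 30 called lower and 1 higher.

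Tumor was next compared with the adjacent cerebellum of the same mice. The 2 comparisons share their tumor samples, so they are not independent of each other. Here 32 of 36 members were called lower and none higher by limma, beside 18% lower and 4.76% higher among all 15845 genes tested, and the median log2 fold change was −2.17 beside −0.14 over all genes. *Stx1a*, *Syt13*, *Sypl* and *Unc13a* were not called. The split of all called genes moved with the scaling, from 755 higher and 2852 lower to 1296 and 2472 with median-of-ratios scaling and 1602 and 2179 with quantile normalization, while 30 and 28 members were then called lower and *Stx1a* was called higher.

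**Figure D2:**
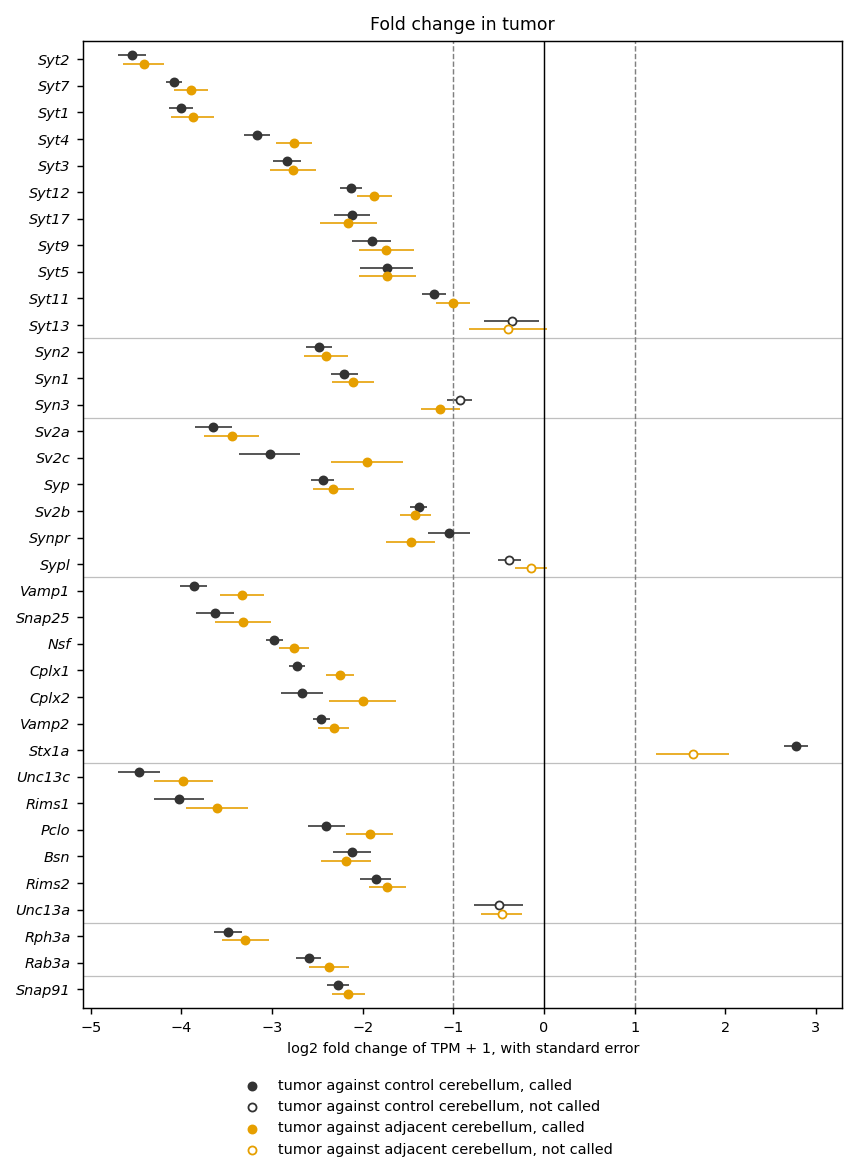
Log2 fold change of each gene (rows, grouped by role and ordered within a role by the first comparison) in tumor against the 6 control cerebella (black) and against the 3 adjacent cerebella (orange), with standard errors. Filled points were called, open points were not, and dashed lines mark a log2 fold change of 1 in each direction.

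*Syt2* and *Unc13c* had the most negative log2 fold changes here too. *Syt2* had 303, 263 and 276 TPM in the adjacent cerebella of GB344, GB359 and GB370 and a log2 fold change of −4.42 ± 0.23 (SE; limma adjusted p = 1.86e-04). *Unc13c* had 40.8, 52.0 and 49.1 TPM there and a log2 fold change of −3.98 ± 0.33 (SE; limma adjusted p = 2.64e-04). *Syn3*, not called against controls, was called here at −1.15 ± 0.22 (SE; limma adjusted p = 0.00518), with 14.9, 12.7 and 18.5 TPM in adjacent cerebella. *Syn3* lost that call when any 1 of the 6 samples was left out, and leaving out any 1 sample left 25 to 30 members called lower.

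*Stx1a* separated the 3 mice. It had 13.4, 9.17 and 3.56 TPM in the adjacent cerebella of GB344, GB359 and GB370, between the tumors and the controls in GB344 and GB359 and just under the highest control in GB370. Tumors were above adjacent cerebella in all 3 mice, and the log2 fold change of 1.64 ± 0.40 (SE; limma adjusted p = 0.0140) missed the threshold. It passed without adjacent GB344, at 2.0, and without adjacent GB370, at 1.17.

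Adjacent cerebellum was then compared with control cerebellum, which asks whether cerebellum next to a tumor differs in its release genes from cerebellum with no tumor. With limma, none of the 36 members was called in either direction, and 14 had an unadjusted p under 0.05, as did 34.5% of all genes, a share close to that of the members. Among all 16091 genes tested, 0.224% were higher by that call and 0.0124% lower. The members' median difference was −0.15 on the log2 scale, beside 0.066 over all genes. With quantile normalization 41 genes were called higher and 18 lower where the deposited scale gave 36 and 2, and the counts were 7 and 22 against the Brca2-WT;Trp53-mut controls alone and 2 and 2 against the Brca2-mut;Trp53-WT controls alone. The controls here are the same 6 samples as in the first comparison.

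The 2 largest differences were those of *Stx1a* (1.14 ± 0.30, SE; limma adjusted p = 0.0328) and *Sv2c* (−1.07 ± 0.38, SE; limma adjusted p = 0.0763). *Stx1a* was called higher, at 1.61, without adjacent GB370. *Sv2c* had 4.44, 13.3 and 10.2 TPM in adjacent cerebella, and its control spread was wide, with 42.3, 15.7 and 18.5 TPM in Brca2-mut;Trp53-WT cerebellum alone. With a looser call, a limma adjusted p below 0.05 whatever the fold, *Stx1a* was higher and 6 members were lower: *Cplx1*, *Cplx2*, *Vamp1*, *Syt4*, *Pclo* and *Unc13c*, by 0.41 to 0.67 on the log2 scale. By that looser call 10.1% of all genes were higher and 5.57% lower. *Cplx2* had 219.9, 401 and 308 TPM in adjacent cerebella against 436, 489.7 and 528 TPM in controls, and *Vamp1* had 132, 195 and 181 TPM against 224, 241 and 275 TPM. In both genes, and in 4 further members, every adjacent cerebellum lay below every control, and in no member above, where 7.64% of all genes lay wholly below and 11.7% wholly above.

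The 3 adjacent cerebella were not alike. The median member stood at 77.6% of its control mean in GB344, 85.3% in GB359 and 103% in GB370, beside 95.2% to 106% in single controls. GB344 was the lowest of the 3 for 26 members and GB370 the highest for 24. *Snap25* had 1415, 1619 and 2063 TPM in this order, *Syp* 662, 785 and 980.2 TPM, *Syt1* 180.5, 217 and 290.4 TPM and *Nsf* 257, 278 and 348 TPM. Summed progenitor markers had the reverse order in the same mice and *Stx1a* too, at the values given above. Summed oligodendrocyte markers were 1717, 4644 and 2110.4 TPM in the adjacent cerebella of GB344, GB359 and GB370 against 3455 to 5319 TPM in controls, and all 6 of them had negative log2 fold changes in this comparison, with a median of −0.87. The 6 Purkinje cell markers also had negative log2 fold changes, with a median of −0.40, and summed to 3818, 4085 and 4749 TPM. The part that tumor cells in the adjacent tissue, or the makeup of the tissue in these other cell types, has in the members' values was not tested.

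**Figure D3:**
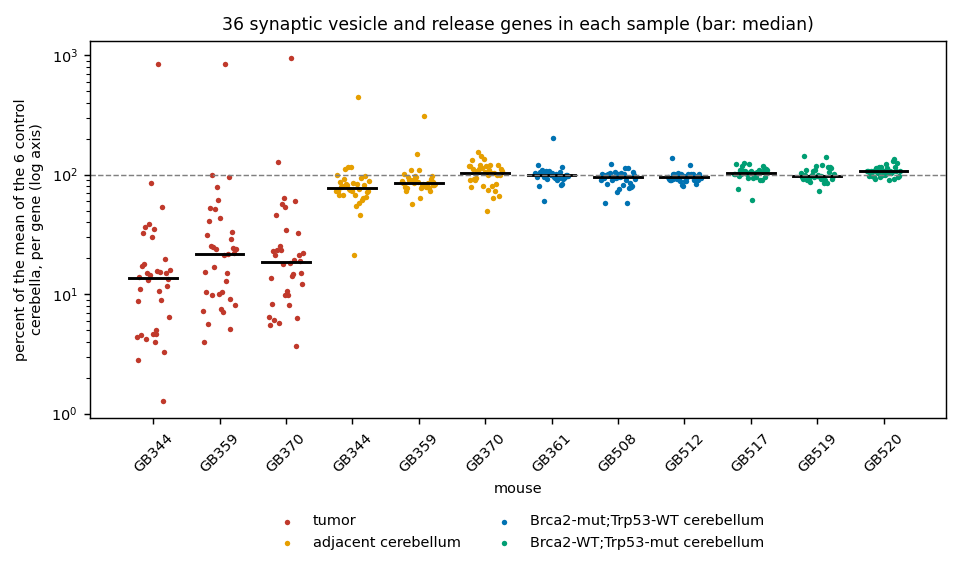
Each of the 36 genes as a percent of its mean in the 6 controls (log axis), 1 point a gene and 1 column a sample, with a bar at the median. Medians run from 13.6% to 21.8% in tumors, from 77.6% to 103% in adjacent cerebella and from 95.2% to 106% in controls, and the high point of the tumor columns and of adjacent GB344 and GB359 is Stx1a.

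**Figure D4:**
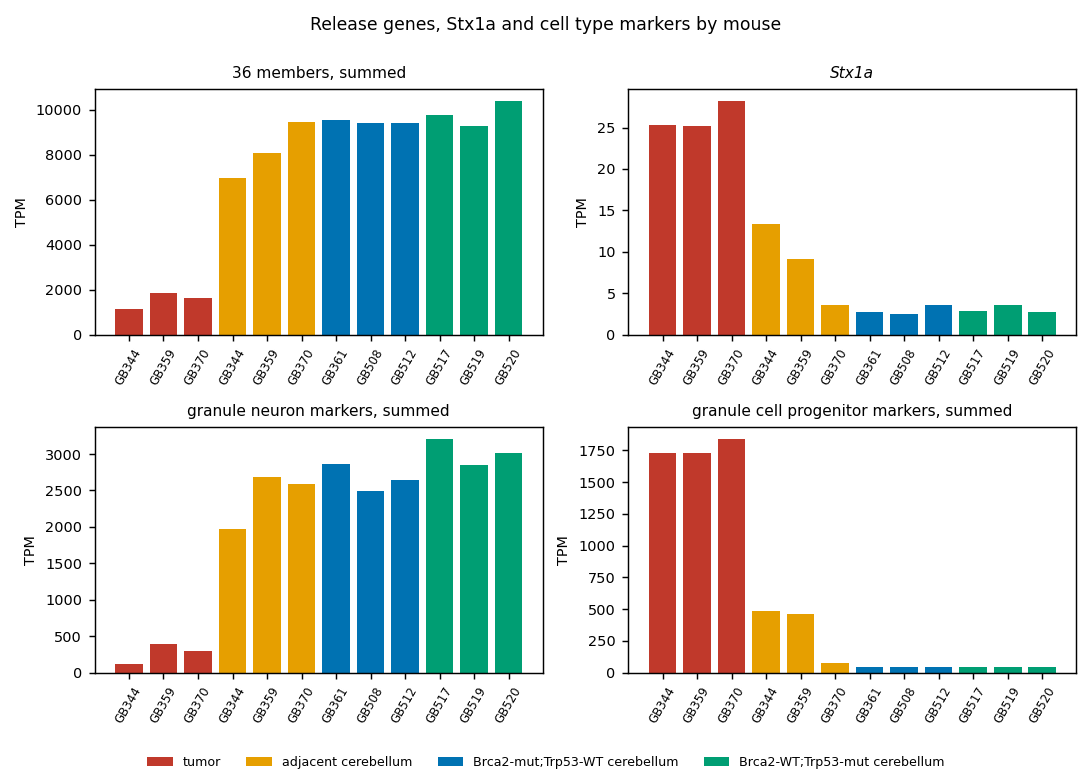
TPM by mouse of the 36 members summed, of Stx1a, and of the summed granule neuron and granule cell progenitor markers, colored by group. In adjacent cerebella the member sum is 6984, 8066 and 9465 in GB344, GB359 and GB370 while Stx1a runs from 13.4 to 3.56 TPM.

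The 2 tumor-free genotypes were compared to learn how far release genes differ with no tumor present. With limma, none of 36 members was called in either direction, beside 0.0128% of 15575 genes called higher and 0.0449% lower. An unadjusted p under 0.05 was reached by 9 members and by 20.1% of all genes. The calls over all genes were 2 higher and 7 lower, which became 2 and 2 with median-of-ratios scaling or without *Mir6236* and 2 and 1 with quantile normalization. The median log2 fold change of the members was −0.066, beside −0.073 over all genes. The largest differences in the Brca2-mut;Trp53-WT cerebella were −0.57 ± 0.22 (SE) for *Unc13a*, 0.52 ± 0.35 (SE) for *Sv2c* and −0.47 ± 0.12 (SE) for *Synpr*. Of the active zone genes, *Unc13a*, *Rims1*, *Rims2*, *Bsn* and *Pclo* had log2 fold changes of −0.57 to −0.32, and *Unc13c* had 0.17. *Rims2* had 84.5, 77.9 and 75.8 TPM in Brca2-mut;Trp53-WT and 107, 96.8 and 106 TPM in Brca2-WT;Trp53-mut cerebellum (limma adjusted p = 0.0710), and *Bsn* had 80.2, 68.1 and 78.7 TPM against 97.9, 99.6 and 91.4 TPM (limma adjusted p = 0.0939). In *Rims2*, *Bsn* and *Pclo* the groups did not overlap. Over all members 7 lay wholly lower and 2 wholly higher in the Brca2-mut;Trp53-WT cerebella, where 20.3% of all genes lay wholly lower and 6.7% wholly higher, so the share of members lower was near that of all genes. Summed choroid plexus markers were 30.7 to 889.6 TPM in the first genotype and 3978 to 5199 TPM in the second, and Purkinje cell markers 6113 to 7550.2 and 4438 to 4839 TPM, and the part that either has in these differences was not tested.

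Since paralogs fell by unequal amounts, the share of each in its family's TPM was computed per sample, as a description with no test. A family here holds members only, so relatives such as *Unc13b*, *Cplx3* and *Vamp3* are not in its sum. In the Munc13 pair, *Unc13a* held 98.4, 96.5 and 96.0% in the 3 tumors in mouse order, beside 43.4 to 71.0% in controls. The pair thus stood almost wholly as *Unc13a* in tumors. *Sv2b* held 69.04, 56.4 and 50.5% of SV2 mRNA in tumors against 20.9 to 23.8% in controls. *Rims2* held 62.9, 47.2 and 59.2% of the summed *Rims1* and *Rims2* in tumors against 19.1 to 26.7% in controls. *Sv2b* was above *Sv2a* in all 3 tumors, and *Rims2* was above *Rims1* in tumors GB344 and GB370, which was so in no control.

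*Syt9* held 25.3, 34.5 and 20.02% of the 3 fast sensors in tumors against 5.74 to 6.97% in controls. The share of *Vamp2* was 91.1, 90.2 and 87.2% in tumors against 73.8 to 76.9%. *Syn1* held 45.9, 52.2 and 45.5% of the synapsins in tumors and 44.3 to 48.3% in controls, with only tumor GB359 above that range. *Syn2* held 44.7, 39.2 and 46.3% against 48.4 to 52.4%, and *Syn3* 9.45, 8.60 and 8.17% against 3.28 to 4.09%. Of *Syp*, *Sypl* and *Synpr* together, *Syp* held 79.3, 81.9 and 80.1% in tumors against 91.4 to 94.4% in controls. *Sypl* held 12.1, 7.08 and 7.37% against 1.96 to 2.88%, and *Synpr* 8.55, 11.1 and 12.5% against 3.36 to 5.91%. *Cplx1* held 70.1, 48.7 and 50.7% of the complexins against 54.6 to 62.8%, with tumor GB344 above that range and the other 2 below it.

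**Figure D5:**
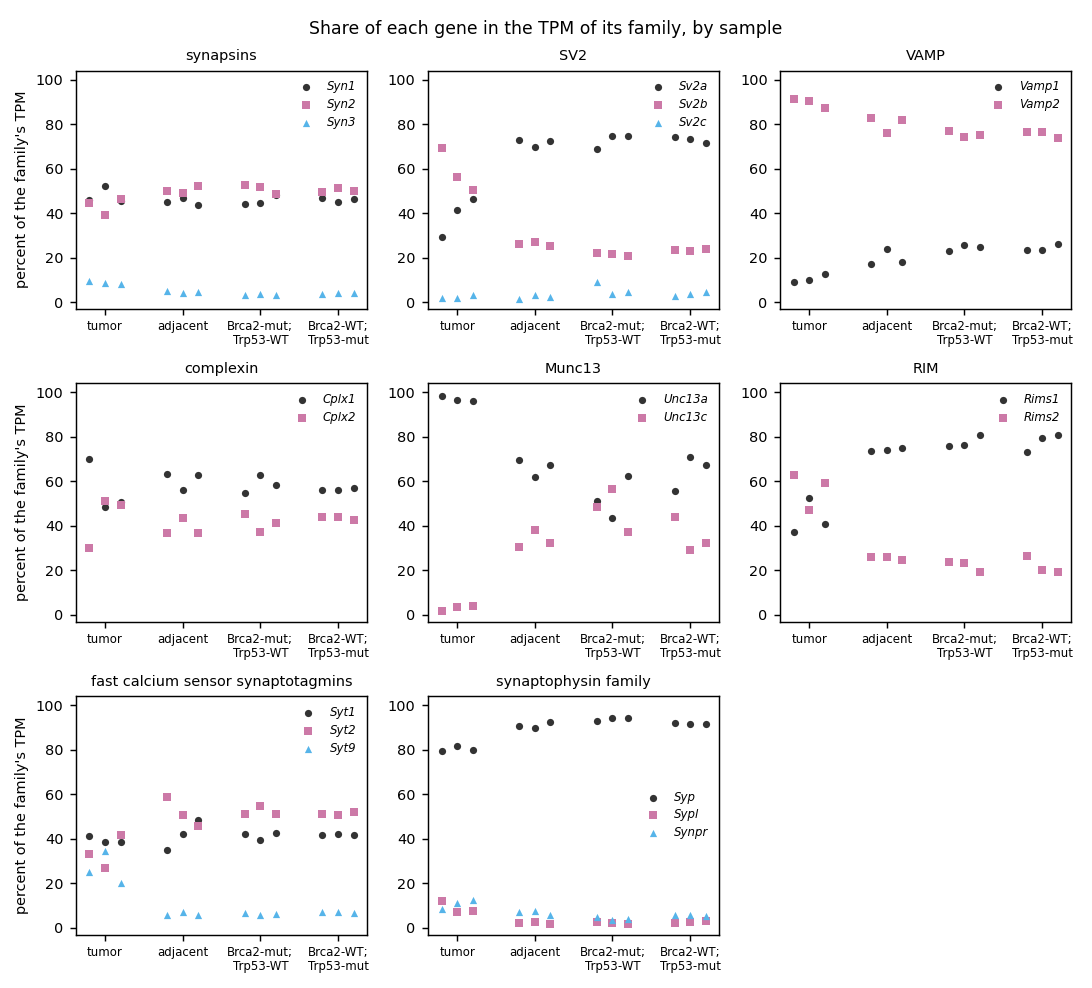
Percent of each family's summed TPM held by each gene in every sample (3 points a group, 1 a mouse), where a family holds members only. Unc13a, Sv2b, Rims2, Syt9, Vamp2, Syn3, Sypl and Synpr hold larger shares in all 3 tumors than in any control. Unc13c, Sv2a, Rims1, Syt2, Vamp1, Syn2 and Syp hold smaller shares in all 3 tumors than in any control.

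The rest of the release pathway was described by 63 further genes of the SNARE, synaptotagmin, active zone, vesicle and retrieval groups, of which 62 were in the table and 60 passed the filter. Against control cerebellum, 33 were called lower and 4 higher in tumors. These were 55% and 6.67% of the 60, where 21.5% of all genes tested were called lower and 14.4% higher. The share called higher was thus below that of all genes. The median log2 fold change of the 60 was −1.23, beside −2.45 in the 36 members and −0.11 over all genes. By group, 8 of 16 other SNAREs and partners, 3 of 8 other synaptotagmins and relatives, 8 of 13 active zone genes, 8 of 11 vesicle and Rab genes and 6 of 12 retrieval genes were called lower. The largest falls were those of the endocytic dynamin *Dnm1* (−4.24, from 861 to 49.8 TPM), *Rims4* (−4.10), *Dnm3* (−3.81), *Syt10* (−3.51) and the vesicle transporter-like *Svop* (−3.38).

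The 4 called higher were *Syt15* (2.19 ± 0.21, SE), a synaptotagmin without calcium binding, the calcium sensor of spontaneous release *Doc2a* (1.71 ± 0.16, SE), the endophilin *Sh3gl3* and the synaptogyrin *Syngr2*, at 1.10 and 1.02. *Doc2a* had 26.8, 19.6 and 15.6 TPM in tumors, 9.20, 9.11 and 5.81 TPM in adjacent cerebella and 4.54, 5.69 and 5.78 TPM in controls, and *Syt15* had 13.7, 6.66 and 7.36 TPM, 6.38, 3.13 and 1.66 TPM and 0.798, 1.13 and 1.56 TPM. In both, as in *Stx1a*, the adjacent cerebellum of GB370 was the lowest of the 3 adjacent samples. Against adjacent cerebellum limma placed 32 of the 60 further genes lower and 1 higher, beside 18% lower and 4.76% higher among all genes tested. In the comparisons of adjacent with control cerebellum and of the tumor-free genotypes limma called none of them.

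The choice by name did not use position or promoter sequence, and both were described. The 36 members lie on 17 chromosomes. Their gene bodies span from 3.85 kb in *Vamp2* to 529 kb in *Unc13c*, with a median of 68.4 kb and 14 of 36 over 100 kb. Over 16224 tested genes with a position the median was 21.5 kb, with 2206 over 100 kb. RefSeq promoter windows, from 250 bases before to 50 bases after the start on GRCm38.p6, were found for 26 members in 37 windows. Their median GC content was 62.7% and they held a median of 18 CpG dinucleotides, against 52.7% and 7 over all 32851 windows.

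Promoter sequence is shown for the 1 member that rose, for *Syn1* as a member that fell, and for *Unc13a*, which was not called. Letters of the RE1 element, the site of the repressor REST that keeps neuronal genes off outside neurons, were searched on both strands as a left part TTCAGCACC and a right part GGACAGCG. Only exact letters were searched, so a part with a changed letter was left unmarked. In *Stx1a* the capitals mark the GC box GGGCGG and the E-box CAGCTG, and in *Syn1* the left RE1 part and the cAMP response element TGACGTCA. In *Unc13a* they mark both RE1 parts, with 8 bases between them. The first 2 are the 250 bases before the start, at chr5:135023232-135023481 (plus strand) and chrX:20920919-20921168 (minus strand), and the third is 30 bases at chr8:71671724-71671753 read on the plus strand, opposite to the gene, just after its start.
Stx1a: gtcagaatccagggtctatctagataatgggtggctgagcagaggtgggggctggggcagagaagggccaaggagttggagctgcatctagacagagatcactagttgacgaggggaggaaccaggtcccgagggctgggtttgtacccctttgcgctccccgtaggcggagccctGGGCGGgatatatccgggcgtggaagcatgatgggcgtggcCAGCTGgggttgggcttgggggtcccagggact
Syn1: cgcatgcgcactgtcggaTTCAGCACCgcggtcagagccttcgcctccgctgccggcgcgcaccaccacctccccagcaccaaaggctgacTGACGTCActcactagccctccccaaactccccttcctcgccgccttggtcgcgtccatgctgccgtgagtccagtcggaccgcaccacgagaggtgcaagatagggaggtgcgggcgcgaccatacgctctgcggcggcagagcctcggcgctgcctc
Unc13a: cgcTTCAGCACCgggggcgcGGACAGCGcc
The left RE1 part was in the windows of *Syn1* and *Unc13a* alone and in 0.371% of all windows, and the right part was in that of *Unc13a* alone and in 1.26% of all windows. The E-box CAGCTG, which neural basic helix-loop-helix factors bind, was in 10 of 37 member windows, among them those of *Stx1a*, *Syt1* and *Unc13c*, against 16.3% of all windows, and 4 held CAGATG against 17.2%. The letters GACCACCCA of the GLI site were in no member window and in 0.253% of all windows, and the GC box was in 23 member windows against 35.7%. Such matches describe letters in a window and say nothing of binding.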

How the data were processed

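Polyadenylated RNA of 12 samples was sequenced by the authors, who quantified the reads with Salmon 0.8.1 against mm10 known genes and summed transcripts to genes. The values are TPM per gene and sample as the authors deposited them, in 1 table of 24091 genes. Each column sums to 999793 to 999876, so the depth per sample and counting intervals are unknown, and precision rests on 3 samples a group. No source used here gives strand. *Mir6236* holds 4.25% to 11.5% of the TPM of a sample.

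Groups were read from the genotype and tissue labels. Each comparison was fitted with its own samples only, by limma 3.58.1 in R 4.3.3 (empirical Bayes with a trend) on log2(TPM + 1), over genes at 1 TPM or more in at least 3 of its samples, with Benjamini-Hochberg adjustment over all genes tested. A gene was called where the adjusted p was below 0.01 and the log2 fold change was 1 or more in size, thresholds in the study's methods. Scripts were tested on simulated data. All 36 members are named; of the further release genes, the 5 largest called changes in each direction in tumor against control cerebellum are named. The members and all gene lists were chosen with earlier results of these data known, so no list was given a p-value. Replicates are separate mice; tumor and adjacent samples of a mouse are paired by the mouse number in their titles. Across 15845 genes, deviations from the group means correlated at 0.249, 0.176 and 0.152 within mice GB344, GB359 and GB370 and at −0.163 to 0.018 between mice.

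Alternatives were another pseudocount (0.1), other filters (none, or 5 TPM), 2 other scalings, TPM without *Mir6236*, no trend, all groups in 1 fit, a looser call, 1 control genotype at a time, the mouse as a block, and each sample left out. Positions and promoters come from RefSeq on GRCm38.p6 and exon overlaps from GENCODE vM21. Protein sequences were not used here.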

Additional observations from a re-analysis of the deposited data

Results flagged for a closer look

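Among the 6 control cerebella, 3 of the 36 members had 1 sample whose gap to the nearest of the others was large for the whole range of the group, and chance alone marks about 1 in 20 such groups. *Syt3* was at 63.1 TPM in Brca2-WT;Trp53-mut cerebellum GB517, above the other 5 controls. *Rph3a* was at 299 TPM in the same sample. *Snap25* was at 2567 TPM in Brca2-WT;Trp53-mut cerebellum GB520, while the other 5 controls lay together. All 3 genes were called lower in tumors against the controls, also with each control sample left out.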

How the results depend on the processing

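In tumor against control cerebellum, 30 to 33 members were called lower and 1 higher under the 11 settings tried, and 30 to 32 and 1 when 1 sample was left out. Against the Brca2-WT;Trp53-mut controls alone, 2 further release genes were called higher in place of 4. *Syt13*, not called in any of these fits, ranged from −0.71 (without tumor GB370) to 0.18 (without tumor GB344) there, and from −0.75 to 0.14 against adjacent cerebellum without the same tumors. *Synpr* was also not called at −0.94 with median-of-ratios scaling and −0.91 with quantile normalization, and *Syn3* was called at −1.03 with a pseudocount of 0.1.

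In tumor against adjacent cerebellum, the fit with the mouse as a replicate block called 32 members lower, 0 higher, and changed no call of a member. Members called higher were 0 as reported and 1 (*Stx1a*) with median-of-ratios scaling, quantile normalization, all 4 groups in 1 fit or adjusted p under 0.05, and 0 to 1 when 1 sample was left out. Further release genes called higher were 1, against 0 without a filter, 2 with all groups in 1 fit, 3 with quantile normalization or adjusted p under 0.05, and 0 with any 1 sample left out. *Sypl* reversed to 0.032 with median-of-ratios scaling and 0.14 with quantile normalization, which moved the median of all genes by 0.17 and 0.27. In tumor against control cerebellum quantile normalization moved it by 0.16, and in adjacent against control cerebellum by −0.10. *Syn3* and *Syt11* lost their calls under both scalings, and *Syt5* and *Sv2c* with quantile normalization. The cause of these changes was not tested.

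In adjacent against control cerebellum, adjusted p under 0.05 gave 1 member higher and 6 lower and 1 further release gene higher and 8 lower, against 0 each. Leaving out 1 sample gave 0 to 1 members and 0 to 1 further genes higher, the 1 of each without adjacent GB370. Between the tumor-free genotypes the members' median of −0.066 moved to 0.016 with median-of-ratios scaling and lay between −0.11 and −0.044 with 1 sample left out.

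Counts over all genes moved more. Against adjacent cerebellum the 755 called higher ranged from 465 to 2870 over the settings and from 189 to 913 with 1 sample left out. In adjacent against control cerebellum the 36 higher and 2 lower ranged over 2 to 1627 and 0 to 897, and with 1 sample left out over 0 to 564 and 0 to 29. Between the genotypes the 2 higher and 7 lower ranged over 2 to 6 and 1 to 65, and over 2 to 5 and 2 to 27.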
